A study of Rattus norvegicus with 12 samples.

Results

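Integrins are the cell surface receptors that hold cells to matrix and to each other, and laminins, nidogens, perlecan and agrin build the basement membrane sheet that many of them hold. The genes covered here were those named as an integrin alpha or beta subunit, a laminin alpha, beta or gamma chain, a nidogen, Hspg2 (perlecan) or Agrn (agrin). The name rule found 40 of the 23096 genes in the table, and 39 of them are described here: 26 integrin subunits, 10 laminin chains and 3 linkers (Nid1, Nid2 and Agrn). Every count of members below is over these. Hspg2 is not among the 40 and was not analysed here. Of the 39, 37 passed the filter on low counts, and Itga10 and Lama1 did not.

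Whole lungs with their bronchi gave 12 libraries, from male Sprague Dawley rats by their labels, aged 8 weeks and weighing 300 g. The DA rats (n = 6) received 2,3-butanedione (diacetyl, a butter flavouring compound linked to bronchiolitis obliterans) into the trachea at 125 mg/kg each day over 7 days, and the lungs were removed 24 h after dosing ended. The control rats (n = 6) received sterile distilled water into the trachea. Messenger RNA was sequenced, with each library taken here as one rat, and the comparison asked which genes differed between DA and control lungs.

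Each integrin is a pair of one alpha and one beta chain, and the pair sets both the ligand and the cell that carries it. Integrins with the β2 or β7 chain belong to leukocytes and bind counter-receptors on endothelium and epithelium, while most pairs with the β1 chain bind collagens, laminins or fibronectin. Pairs with αv bind proteins with an RGD tripeptide, among them the latent form of TGF-beta. A laminin is a trimer of one alpha, one beta and one gamma chain. Trimers with the products of Lama3 and Lamb3 anchor epithelial cells and are bound by α3β1 and α6β4. Nidogens and perlecan tie the laminin network to collagen IV, and agrin ties it to dystroglycan on the cell surface.

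Library totals ranged from 13723207 to 16271842 counts. Defining markers of lung were abundant. The surfactant gene Sftpc had medians of 10797 CPM in DA and 10259 CPM in control (CPM, the read count scaled to a common library size with trimmed-mean-of-M-values factors), and the alveolar type 1 gene Ager had 1107 CPM in DA and 932 CPM in control. Of the 12 libraries, 6 went against the label of sex. Summed counts of Y-linked genes were 2189 to 2884 in 6 libraries (DA 1 to 4, control 1 and 2) and at most 9 in the other 6 (DA 5 and 6, control 3 to 6). This split was uneven between the groups, with 4 of 6 DA libraries and 2 of 6 control libraries holding Y-linked reads, so called members are also given from a fit that includes it as a covariate (the Y-adjusted fit), from the 6 Y-positive libraries and from the 6 Y-negative libraries. In the Y-positive libraries (4 DA, 2 control) edgeR called 0 of all 14517 genes, with 1388 at an unadjusted p under 0.05, so a call lost there says little about a gene. DA 4 also stood apart. It had the lowest level of the 6 DA libraries in 22 of the 37 tested members and the lowest summed level of all members (3392 CPM, against 4872 to 6745 CPM in the other DA libraries and 5028 to 5570 CPM in control). In the same library the alveolar type 2 markers summed to 8900 CPM, against 17965 to 24024 CPM in the other DA libraries, and the B cell markers to 765 CPM, against 36.9 to 76.9 CPM there. The part of either difference in the results was not tested beyond the values given with and without these libraries.

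Of the 37 tested members described here, 6 were lower in DA (Itgal, Itgb2, Itgb7, Itgb3, Itgam and Itga4) by edgeR (quasi-likelihood F test, adjusted p threshold 0.05). Of the same 37, edgeR called 0 higher, with 6 that had a positive fold change at an unadjusted p under 0.05 and 3 called higher by DESeq2. Among all genes tested, 8.45% were called higher and 7.51% lower, 16.0% in all. The members' 16.2% called was near the 16.0% of all genes called in either direction. By direction, 16.2% of the members were lower, against 7.51% of all genes, and 0% higher, against 8.45%. The median log2 fold change was -0.01 over these members and 0.03 over all tested genes. The lower calls lay among integrins, 6 of 25 tested. Only 3 tested members (8.11%) had groups that did not overlap (all lower in DA), against 6.04% of all genes, 2.93% lower in DA. Other fits moved both shares. DESeq2 called 10 members, with 24.3% of all genes called, and limma-voom with quality weights called 13, with 27.3% of all genes. The Y-adjusted fit called 3, with 7.72% of all genes, and the Y-negative libraries gave 11, with 11.6%. Without DA 4, 5 members were called higher and 7 lower, with 19.1% of all genes called.

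**Figure D1:**
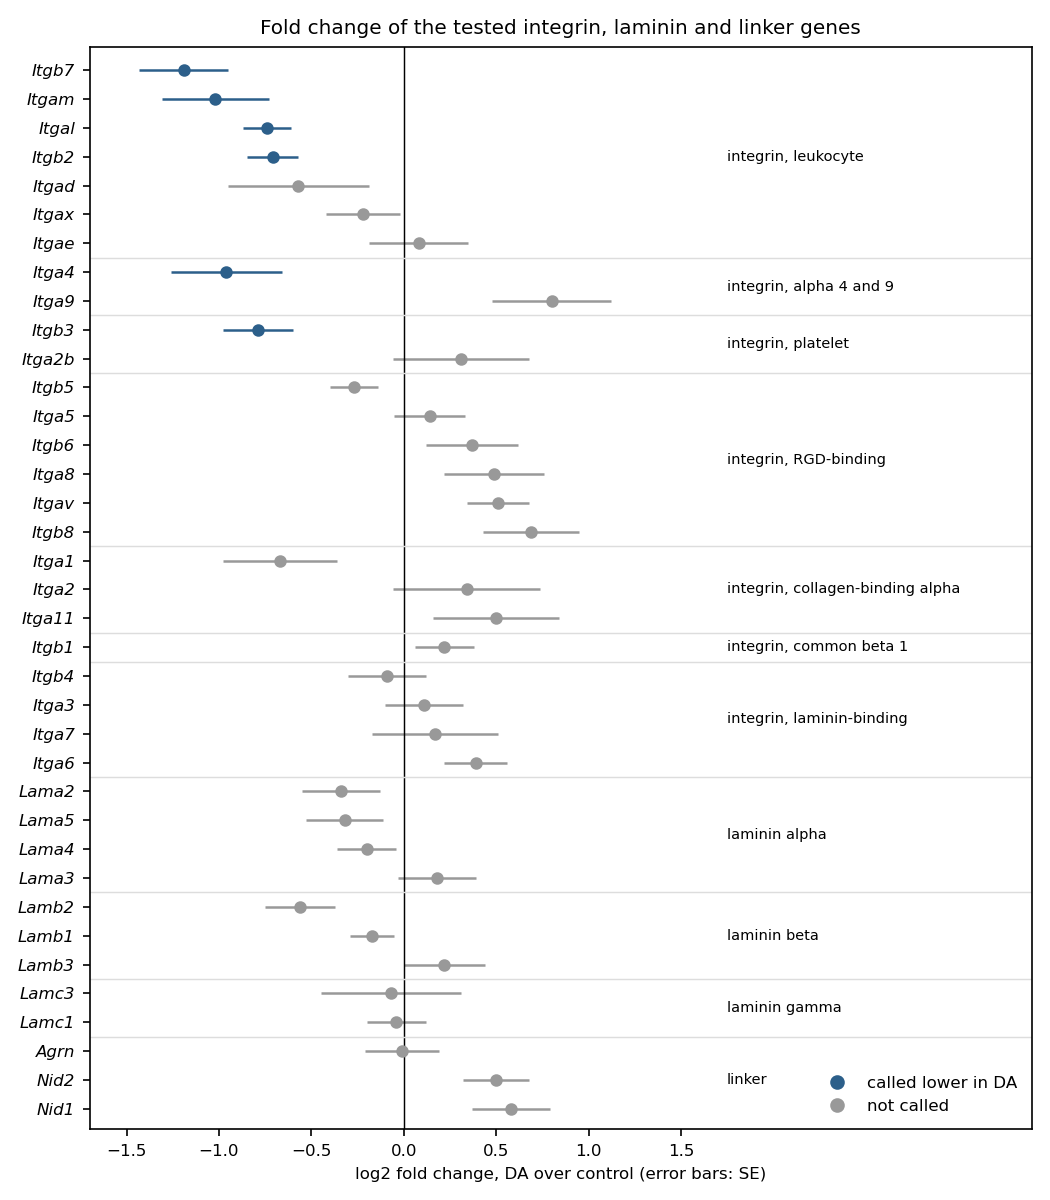
Log2 fold change (DA over control) with its standard error for the 37 tested members, 6 libraries per group, arranged by role and coloured by call. The leukocyte integrins Itgb7, Itgam, Itgal and Itgb2 lie between -1.19 and -0.71, Itga4 and Itgb3 lie at -0.96 and -0.79, and the 31 members not called lie between -0.67 and 0.80.

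Leukocyte integrin chains made up most of the lower calls in DA lungs, with Itgb7, Itgam, Itgal and Itgb2 all lower. Of the 7 genes in this group, 4 fell (57.1%, against 7.51% of all tested genes) and 0 rose (against 8.45%). The median log2 fold change was -0.71. Itgal and Itgam encode alpha partners of the Itgb2 chain, so these calls are not separate findings. In Itgal, Itgb2 and Itgb7 the groups did not overlap: no DA library reached the lowest control library. Itgax, Itgad and Itgae were not called. In whole tissue, fewer leukocytes and less RNA per leukocyte cannot be told apart.

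Itgal encodes αL, the alpha chain of LFA-1, by which lymphocytes and neutrophils bind ICAMs. Its lowest, median and highest levels were 140.0, 164 and 186 CPM in DA, against 217, 261 and 379.7 CPM in control. All 6 DA libraries lay below all 6 control libraries. Itgal (ENSRNOG00000017980) fell by 0.74 ± 0.13 (SE) on the log2 scale (edgeR adjusted p = 0.00572). In the Y-adjusted fit the value was -0.73 (adjusted p = 0.0169), and in the Y-negative libraries -0.87 (adjusted p = 0.0491). In the Y-positive libraries it was -0.60 (adjusted p = 0.503), where the DA libraries reached 186 CPM at most and the controls 228 CPM at least.

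Itgb2 encodes β2, the chain shared by αL, αM, αX and αD. It had 195, 206 and 245 CPM (lowest, median, highest) in DA, against 270.2, 335 and 442 CPM in control. The groups did not overlap. Itgb2 (ENSRNOG00000001224) fell by 0.71 ± 0.14 (adjusted p = 0.00797). The call held in the Y-adjusted fit (-0.60, adjusted p = 0.0229) and in the Y-negative libraries (-0.80, adjusted p = 0.0377). In the Y-positive libraries the value was -0.41 (adjusted p = 0.504).

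Itgb7 encodes β7, which pairs with α4 on gut-homing lymphocytes and with αE on lymphocytes inside epithelium. It had 14.2, 30.5 and 45.4 CPM in DA, against 46.4, 78.0 and 82.4 CPM in control. The groups did not overlap, although DA 4, the highest DA library, lay just under control 2, the lowest control. The Y-positive controls had 46.4 and 52.1 CPM, and the Y-negative controls 77.9 to 82.4 CPM. Itgb7 (ENSRNOG00000012208) fell by 1.19 ± 0.24 on the log2 scale (adjusted p = 0.00919). The call held in the Y-adjusted fit (-1.11, adjusted p = 0.0348) and in the Y-negative libraries (-1.67, adjusted p = 0.0229). In the Y-positive libraries it was -0.57 (adjusted p = 0.525).

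Itgam encodes αM, the alpha chain of Mac-1 on neutrophils, monocytes and macrophages. It had 20.6, 31.6 and 44.8 CPM in DA, against 33.0, 76.8 and 96.4 CPM in control. The groups overlapped, because control 1 and 2, at 33.0 and 34.4 CPM, lay within the DA range, while control 3 to 6 lay at 73.7 to 96.4 CPM. Itgam (ENSRNOG00000019728) fell by 1.02 ± 0.29 (adjusted p = 0.0319). Control 1 and 2 are the Y-positive controls, and in the Y-positive libraries the value was 0.07 (adjusted p = 0.957). In the Y-negative libraries it was -1.57 (adjusted p = 0.00706), and in the Y-adjusted fit -0.75 (adjusted p = 0.159). The call was also lost without control 3, 4, 5 or 6 or DA 3, 5 or 6 (adjusted p = 0.0528 to 0.0705), in limma on log2(FPKM + 0.5) (adjusted p = 0.0599), with the replicate number as a block (-0.96, adjusted p = 0.083) and after removal of the gene length trend (adjusted p = 0.0532).

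Itgax, the αX chain of dendritic cells and macrophages, had 29.6 to 72.9 CPM in DA and 37.1 to 68.1 CPM in control (log2 fold change -0.22, adjusted p = 0.472). Itgad, the αD chain, had 1.41 to 12.8 CPM in DA and 6.02 to 11 CPM in control (-0.57, adjusted p = 0.314). Itgae, the αE chain that lets lymphocytes hold E-cadherin, had 2.66 to 6.38 CPM in DA and 2.68 to 6.17 CPM in control (0.08, adjusted p = 0.855). The ranges of all 3 overlapped. In Itgad 4 of 6 DA libraries lay below every control and DA 4 lay above them all. Itgad was called lower in the Y-negative libraries (-1.87, adjusted p = 0.0375), and its value in the Y-positive libraries was -0.14 (adjusted p = 0.922).

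Itga4 encodes α4, which pairs with β1 or β7 on lymphocytes, monocytes, eosinophils and mast cell precursors. It had 23.3, 36.2 and 89.3 CPM in DA, against 66.6, 86.4 and 128 CPM in control. Of the 6 DA libraries, 5 lay below all controls, and DA 4 lay above 4 of the 6 controls. Itga4 (ENSRNOG00000004861) fell by 0.96 ± 0.30 (adjusted p = 0.0462). This call was kept without control 1, DA 2 or DA 4 (adjusted p = 0.0479, 0.0399 and 0.00551) and lost without any other single library (adjusted p = 0.0665 to 0.0977), under upper quartile scaling (adjusted p = 0.0531) and after removal of the gene length trend (adjusted p = 0.0524). In the Y-adjusted fit it was -1.10 (adjusted p = 0.073), and in the Y-negative libraries -1.72 (adjusted p = 0.0102). In the Y-positive libraries it was -0.50 (adjusted p = 0.742). Its relative Itga9, whose α9 chain pairs with β1 on muscle, epithelium and neutrophils, had 27.3, 73.8 and 133 CPM in DA, against 35.7, 44.3 and 62.7 CPM in control. Itga9 was not called (0.80, adjusted p = 0.0971). Without DA 4, the lowest library, it was called higher (0.98, adjusted p = 0.0182), as it was with voom weights (adjusted p = 0.0194) and in the Y-negative libraries (1.27, adjusted p = 0.0163). In the Y-positive libraries the value of Itga9 was 0.32 (adjusted p = 0.872).

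Markers of leukocytes were read beside these integrins. For comparison, 7.51% of all tested genes were called lower and 8.45% higher. Of 5 neutrophil markers 2 fell and 0 rose, and their summed level was 253 to 643 CPM in DA and 245 to 2225 CPM in control, with control 2 the lowest control and control 1 next at 579.9 CPM. Of 6 T and NK cell markers 2 fell (Nkg7 and Prf1), with sums of 61.1 to 144 CPM in DA and 105 to 227 CPM in control. The T cell markers Cd3e, Cd3d, Cd8a and Cd2 were not called (adjusted p = 0.154 to 0.626). Of 5 monocyte and macrophage markers 1 fell and 0 rose. It was Csf1r, at 173 to 295 CPM in DA and 322 to 415 CPM in control (adjusted p = 0.0106), without overlap. Their sums were 7027 to 21149 CPM in DA and 13574 to 18278 CPM in control. These sums were mostly Lyz2, which was not called (-0.04, adjusted p = 0.927), so they say little about the other markers. Of 4 mast cell markers 3 fell, with sums of 5.42 to 7.17 CPM in DA and 12.8 to 44.5 CPM in control, and of 3 tested alveolar macrophage markers 1 fell, with sums of 35.4 to 83.2 CPM in DA and 58.5 to 273 CPM in control. The alveolar macrophage gene Marco had a median of 0 CPM in both groups. Of 5 B cell markers 0 rose and 0 fell, with sums of 36.9 to 765 CPM in DA and 49.4 to 158 CPM in control. The part of leukocyte numbers in the fall of these integrin chains was not tested.

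**Figure D2:**
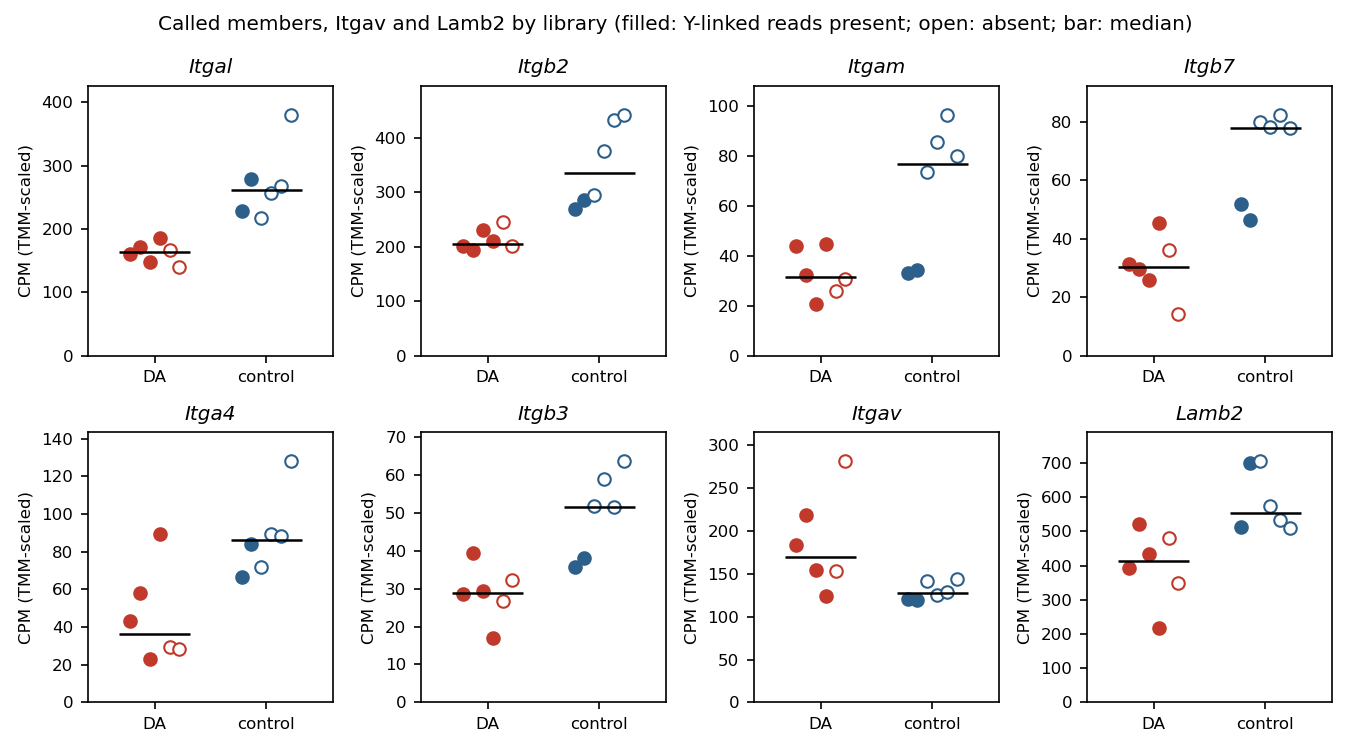
CPM of the 6 called members, of Itgav and of Lamb2 in each library, DA on the left and control on the right, with filled points for Y-positive and open points for Y-negative libraries and a bar at the median of 6. Itgal, Itgb2 and Itgb7 show no overlap between DA and control, and in Itgam the filled control points, 33.0 and 34.4 CPM, sit among the DA points.

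Promoters were at hand in RefSeq's table (build GRCr8) for 30 of the 39 members, and for 3 of the 6 called ones, all of them lower leukocyte genes. They are shown because these genes moved in one direction, with 250 bases before and 50 after the annotated start. In the Itgb7 window the bases after that start open with ATG, so it may be a start of translation and not of transcription. Capitals mark a PU.1-type ETS core (GAGGAA or its complement TTCCTC) and a RUNX core (TGTGGT or ACCACA), motifs of blood cell transcription factors, searched on both strands, and no 2 matches overlapped. The files' own counts were made on another build. The Itga4 window is chr3:84569765-84570064, strand +, the Itgam window chr1:192089342-192089641, strand + and the Itgb7 window chr7:135239022-135239321, strand -.
Itga4: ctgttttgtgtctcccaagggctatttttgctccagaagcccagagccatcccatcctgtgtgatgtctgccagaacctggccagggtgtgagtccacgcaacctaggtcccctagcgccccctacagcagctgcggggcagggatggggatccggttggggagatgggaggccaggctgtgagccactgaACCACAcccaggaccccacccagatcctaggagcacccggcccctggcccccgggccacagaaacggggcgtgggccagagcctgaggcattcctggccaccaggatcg
Itgam: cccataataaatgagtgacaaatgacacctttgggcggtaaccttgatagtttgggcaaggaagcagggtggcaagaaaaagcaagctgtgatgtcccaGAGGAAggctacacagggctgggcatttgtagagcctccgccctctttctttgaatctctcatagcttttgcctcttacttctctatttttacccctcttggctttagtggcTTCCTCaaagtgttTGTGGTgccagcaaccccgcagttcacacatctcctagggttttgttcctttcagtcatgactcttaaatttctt
Itgb7: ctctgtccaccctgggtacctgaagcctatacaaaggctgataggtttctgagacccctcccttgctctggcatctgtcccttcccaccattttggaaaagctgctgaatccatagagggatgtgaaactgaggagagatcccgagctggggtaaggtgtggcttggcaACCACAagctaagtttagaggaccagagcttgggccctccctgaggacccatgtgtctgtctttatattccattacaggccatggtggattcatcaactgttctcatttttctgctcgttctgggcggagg
A RUNX core was found once in each of the 3 windows, and 17.3% of all 33469 promoter windows of the same length hold one. The ETS core was found 2 times in the Itgam window and 0 times in the other two, and 27.6% of all windows hold it. A match of letters is a description of these windows and not a binding site, and whether the Itgb7 window is a promoter is unclear.

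Itgb3 encodes β3, which pairs with αIIb on platelets and with αv on endothelium, smooth muscle and macrophages. It had 17.0, 29.0 and 39.3 CPM in DA, against 35.6, 51.5 and 63.5 CPM in control. Of the DA libraries 5 lay below all controls and DA 2 lay above control 1 and 2. Itgb3 (ENSRNOG00000048449) fell by 0.79 ± 0.19 (adjusted p = 0.0202), and the call held without each single library. It was -0.65 in the Y-adjusted fit (adjusted p = 0.0627), -0.94 in the Y-negative libraries (adjusted p = 0.014) and -0.37 in the Y-positive libraries (adjusted p = 0.716), and -0.80 with the replicate number as a block (adjusted p = 0.0526). Itga2b, the platelet αIIb chain, was not called. It had 4.84, 16.4 and 30.2 CPM in DA, against 9.69, 14.7 and 18.2 CPM in control (0.31, adjusted p = 0.584). The DA libraries lay on both sides of the controls, 3 above all of them and 2 below. Of 3 tested platelet markers 0 rose and 0 fell, Gp1bb had a median of 0 CPM in both groups, and their summed level was 8.46 to 81.1 CPM in DA and 13.8 to 30.2 CPM in control. Of 5 endothelial markers 0 rose and 0 fell, with sums of 1027 to 4204 CPM in DA and 2760 to 4108 CPM in control. Their part in the fall of Itgb3 was not tested.

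None of the 6 RGD-binding chains other than Itgb3 and Itga2b was called, with a median log2 fold change of 0.43. Itgav encodes αv, the alpha chain of several pairs. It had 124, 169 and 281 CPM in DA, against 119.9, 127 and 144 CPM in control. Of the DA libraries 5 lay above all controls, and DA 4 lay within their range. Itgav (ENSRNOG00000004912) had a log2 fold change of 0.51 ± 0.17 that missed the threshold (adjusted p = 0.0539). It was called higher without DA 4 (0.60, adjusted p = 0.0166) or DA 5 (0.56, adjusted p = 0.048), by DESeq2 (adjusted p = 0.0278), under upper quartile scaling (adjusted p = 0.0334), with voom weights (adjusted p = 0.0112) and after removal of the gene length trend (adjusted p = 0.0265). In the Y-adjusted fit it was 0.59 (adjusted p = 0.0518).

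Itgb5, Itgb6 and Itgb8, further beta partners of αv, were not called. Itgb5, a chain of epithelium and fibroblasts, had 50.6, 82.0 and 93.5 CPM in DA, against 88.8, 94.0 and 104 CPM in control (-0.27, adjusted p = 0.175). All 6 DA libraries lay below its control mean, 3 of them below every control. Itgb6, the epithelial chain by which αvβ6 activates latent TGF-beta, had 32.3, 54.1 and 89.5 CPM in DA, against 29.2, 43.9 and 60.1 CPM in control (0.37, adjusted p = 0.32). Itgb8, whose αvβ8 also binds latent TGF-beta, had 11.2, 18.0 and 34.0 CPM in DA, against 10.4, 12.5 and 18.0 CPM in control (0.69, adjusted p = 0.0813). Itgb8 was called higher without DA 5 (0.83, adjusted p = 0.0356) and by DESeq2 (adjusted p = 0.049).

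The fibronectin receptor chain Itga5 had 61.5, 125 and 161 CPM in DA, against 95.1, 104 and 119 CPM in control (0.14, adjusted p = 0.638). The DA libraries spread to both sides, 3 above every control and 2 below. Itga8, whose α8β1 marks smooth muscle and fibroblasts of the alveolar wall and binds nephronectin, had 101, 276 and 401 CPM in DA, against 140.0, 169 and 269 CPM in control (0.49, adjusted p = 0.222). Without DA 4, its lowest library, Itga8 was called higher (0.65, adjusted p = 0.0352), as it was with voom weights (adjusted p = 0.0252). Its 2 highest controls, 244 and 269 CPM, were the Y-positive ones. Itga8 was called higher in the Y-negative libraries (0.86, adjusted p = 0.0128), and its value in the Y-positive libraries was 0.00 (adjusted p = 0.999).

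**Figure D3:**
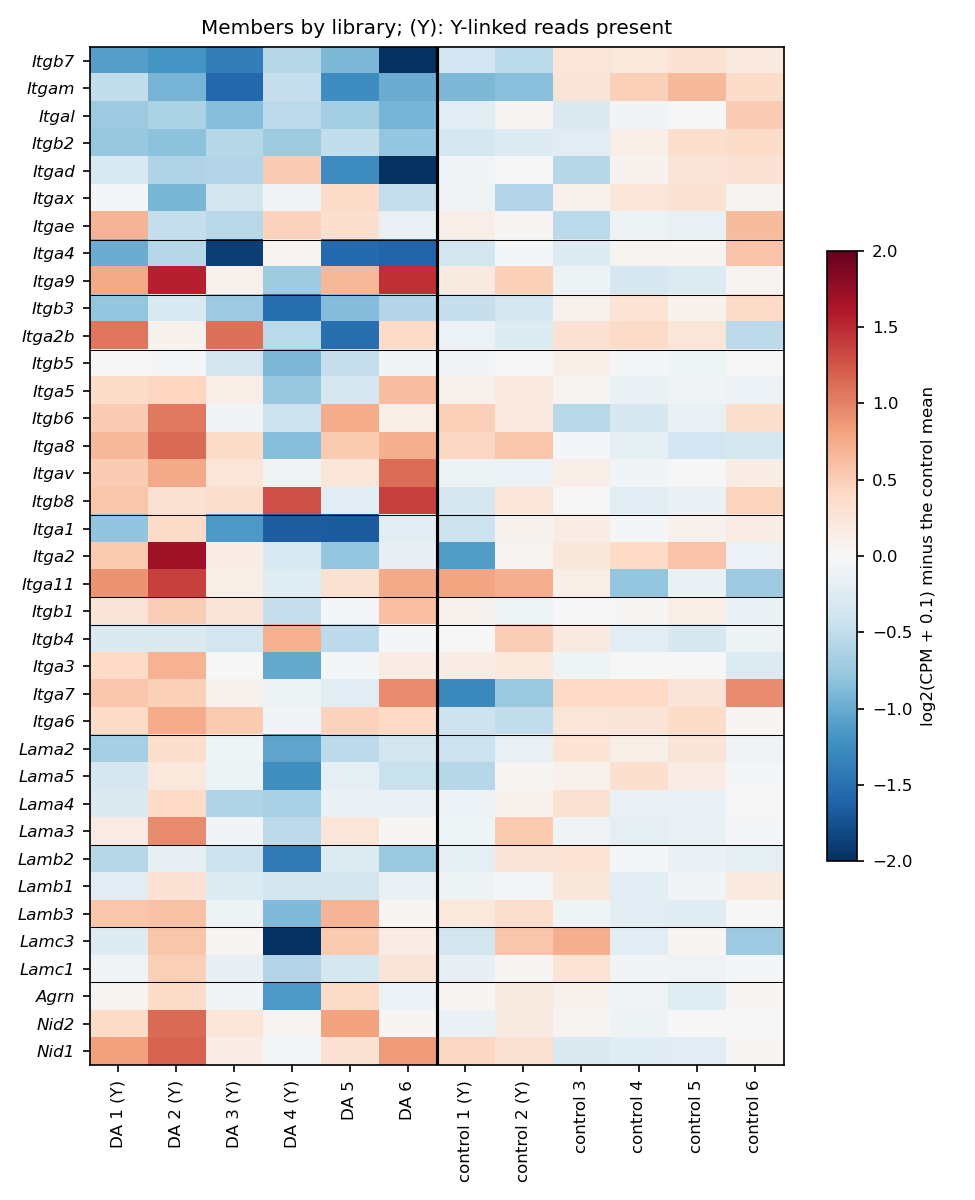
Level of each tested member in each library as log2(CPM + 0.1) minus the control mean, DA libraries on the left, with the colour scale cut at -2 and 2. The column of DA 4 is bluer than its neighbours over the matrix-binding integrins, laminins and linkers, and the rows of Itgb7, Itgam, Itgal and Itgb2 at the top are blue across the DA columns.

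The collagen receptors did not pass the test. Itga1, the α1 chain of smooth muscle, fibroblasts and capillaries that prefers collagen IV, had 28.9, 47.2 and 120.3 CPM in DA, against 68.6, 97.3 and 102 CPM in control (-0.67, adjusted p = 0.151). Of the DA libraries 4 lay below every control while DA 2 lay above them all, and without DA 2 Itga1 was called lower (-1.01, adjusted p = 0.0156). With voom weights it was called lower over all 12 libraries (-0.80, adjusted p = 0.0225). Itga2, an α2 chain of epithelium and platelets, had 3.94 to 22.3 CPM in DA and 3.09 to 10.1 CPM in control (0.34, adjusted p = 0.581), with DA 2 the highest. Itga11, the α11 chain of myofibroblasts that binds collagen I, had 4.65, 8.12 and 14.5 CPM in DA, against 3.19, 5.56 and 9.65 CPM in control (0.50, adjusted p = 0.319). Its 2 highest controls were control 1 and 2, the Y-positive ones, and in the Y-positive libraries the value was -0.08 (adjusted p = 0.967). Itga10, the α10 chain of cartilage, had 0 to 9 counts per library and was not tested.

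The laminin receptors were not called either. Itga6, which pairs with β4 in hemidesmosomes of epithelium and with β1 elsewhere, had 103, 144 and 180.2 CPM in DA, against 75.8, 118 and 139 CPM in control (0.39, adjusted p = 0.121). Of the DA libraries 5 lay above every control and DA 4 lay within them. After removal of the gene length trend Itga6 was called higher (adjusted p = 0.0413). Its lowest controls, at 75.8 and 80.6 CPM, were the Y-positive ones. The value of Itga6 was 0.88 in the Y-positive libraries (adjusted p = 0.503) and 0.19 in the Y-negative libraries (adjusted p = 0.31). In the Y-adjusted fit it was 0.54 (adjusted p = 0.0669). Itgb4 had 28.7, 33.6 and 67.8 CPM in DA, against 32.9, 39.7 and 57.8 CPM in control (-0.09, adjusted p = 0.789), and its highest library was DA 4. Itga3 had 109, 235 and 359.9 CPM in DA, against 184, 222 and 258 CPM in control (0.11, adjusted p = 0.747). Itga7, the muscle laminin receptor chain, had 7.68 to 17.3 CPM in DA and 3.59 to 17.3 CPM in control (0.17, adjusted p = 0.758). The common chain Itgb1 had the highest level of all members per gene length, with medians of 173 FPKM in DA and 145 FPKM in control. FPKM divides by the gene length in the table, which for some members is longer than a usual transcript. Its CPM was 697, 1148 and 1452 in DA, against 879.8, 968 and 1053 in control (0.22, adjusted p = 0.356), with DA 4 the lowest of the 12.

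Of the 9 tested laminin chains described here, edgeR called 0, with 1 (Lamb2) at an unadjusted p under 0.05, which DESeq2 called. Lama3 and Lamb3 encode the α3 and β3 chains that join epithelial cells to the membrane. Lama3 had 78.7, 121 and 218 CPM in DA, against 99.6, 107 and 162 CPM in control (0.18, adjusted p = 0.574). Lamb3 had 52.8, 121 and 155 CPM in DA, against 82.5, 94.0 and 124 CPM in control (0.22, adjusted p = 0.522). In both genes the lowest of the 12 libraries was DA 4. Basal epithelial markers summed to 285 to 474 CPM in DA and 169 to 267 CPM in control, most of it Krt15, which was the 1 marker called higher of 3 tested. The defining basal keratin Krt5 had 53.5 CPM in DA 4, 0 to 0.129 CPM in the other 5 DA libraries and 0 to 0.143 CPM in control. Of 4 tested secretory airway markers 3 rose, with sums of 3610 to 13411 CPM in DA and 2436 to 6472 CPM in control, and of 5 alveolar type 2 markers 0 changed. For comparison, 8.45% of all tested genes were called higher. The part of epithelial cell numbers in the levels of Lama3 and Lamb3 was not tested.

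Lamb2 encodes β2 laminin, the beta chain of vessels, airways and muscle. It had 219, 413 and 523 CPM in DA, against 509, 553 and 705 CPM in control. Of the DA libraries 5 lay below every control, and DA 2 lay above control 6 and 1. Lamb2 (ENSRNOG00000047768) had a log2 fold change of -0.56 ± 0.19 that missed the threshold (adjusted p = 0.0551). It was called lower without DA 2 (-0.65, adjusted p = 0.0293) or DA 4 (-0.44, adjusted p = 0.0393), by DESeq2 (adjusted p = 0.0191), with voom weights (adjusted p = 0.0147) and in limma on log2(FPKM + 0.5) (adjusted p = 0.0477). In the Y-adjusted fit it was -0.56 (adjusted p = 0.102). Lamb1, the other broad beta chain, had 93.9, 101 and 147 CPM in DA, against 104, 116 and 141 CPM in control (-0.17, adjusted p = 0.362).

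The alpha chains were not called over all 12 libraries. Lama5, the main alpha chain of mature epithelial and endothelial membranes, had 130.0, 253 and 350.3 CPM in DA, against 204, 316 and 385 CPM in control (-0.32, adjusted p = 0.301). Lama4, the chain of capillaries and muscle, had 107, 145 and 222 CPM in DA, against 153, 163 and 208 CPM in control (-0.20, adjusted p = 0.412). Lama2, the muscle and nerve chain that dystroglycan binds, had 33.0, 50.7 and 88.0 CPM in DA, against 50.9, 70.2 and 83.4 CPM in control (-0.34, adjusted p = 0.266). Lama2 was called lower in the Y-negative libraries (-0.60, adjusted p = 0.0325), and its value in the Y-positive libraries was 0.02 (adjusted p = 0.995). In all 3 genes, 5 of 6 DA libraries lay below the control mean and DA 2 lay above it. Lamc1, the gamma chain of most trimers, had 220.2, 306 and 459.6 CPM in DA, against 296, 323 and 402 CPM in control (-0.04, adjusted p = 0.897), and Lamc3 had 2.36 to 16.3 CPM in DA and 6.67 to 18.4 CPM in control (-0.07, adjusted p = 0.92). Lama1, the alpha chain of embryonic membranes, was below the filter. It had 219 counts in DA 4, 0 to 15 counts in the other DA libraries and 1 to 8 counts in the controls.

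Set against the other beta chains, the epithelial chain Lamb3 had a larger median share in DA. Lamb3 made up 34.6%, 40.9% and 47.4% (lowest, median, highest) of the summed beta chain FPKM in DA, against 24.9%, 29.9% and 35.6% in control. The groups overlapped at their ends, with 5 of 6 DA libraries above every control. The mean share of Lamb3 in DA minus control was 15.1 percentage points in the Y-negative libraries and 6.12 in the Y-positive libraries. Lamb2 made up 46.7% to 58.9% in DA and 58.2% to 68.5% in control. Among alpha chains Lama4 was the largest, at 45.7% to 58.4% in DA and 49.4% to 59.5% in control, and Lama3 made up 16.8% to 20.4% in DA and 12% to 18.9% in control. These shares depend on the gene lengths in the table, and were not tested. Lama4 has 6051 bases there and Lama5 22734. By CPM, which is not divided by length, Lama5 was above Lama4, with medians of 253 against 145 in DA and 316 against 163 in control.

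**Figure D4:**
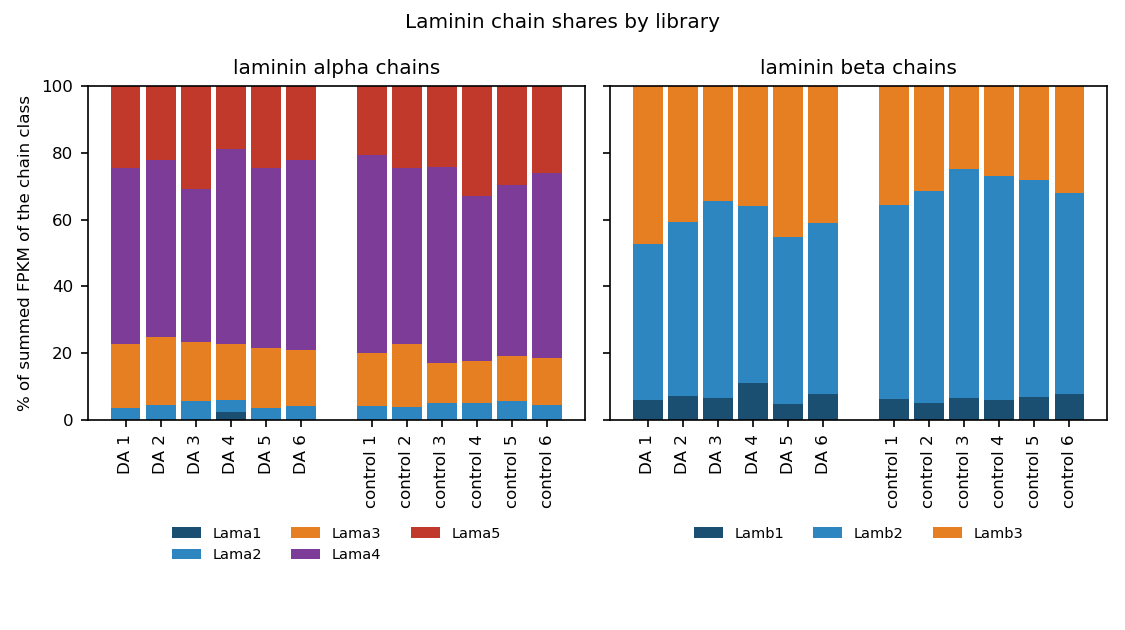
Share of each chain in the summed FPKM of laminin alpha chains and of laminin beta chains, one bar per library, DA libraries left of control libraries. The Lamb3 band is 34.6% to 47.4% of the beta chains in DA and 24.9% to 35.6% in control.

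The 3 linkers were not called, and both nidogens had positive fold changes. Nid1, nidogen-1, had 141, 214 and 324 CPM in DA, against 117, 135 and 192 CPM in control (0.58 ± 0.21, adjusted p = 0.0723). It was called higher without DA 4 (0.68, adjusted p = 0.0321), by DESeq2 (adjusted p = 0.041), with voom weights (adjusted p = 0.0111), with the replicate number as a block (adjusted p = 0.0282) and in the Y-negative libraries (0.76, adjusted p = 0.0326). It was 0.25 in the Y-positive libraries (adjusted p = 0.834) and 0.51 in the Y-adjusted fit (adjusted p = 0.142). Its 2 highest controls, 177 and 192 CPM, were again the Y-positive ones. Nid2 had 16.9, 20.2 and 36.2 CPM in DA, against 15, 16.4 and 18.5 CPM in control (0.50 ± 0.18, adjusted p = 0.0768). All 6 DA libraries lay above the control mean of Nid2, 4 of them above every control, and without DA 4 it was called higher (0.57, adjusted p = 0.0439). Agrn, the heparan sulphate linker to dystroglycan, had 156, 346 and 453 CPM in DA, against 292, 352 and 394 CPM in control (-0.01, adjusted p = 0.973).

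In most tested members the spread between libraries was larger in DA than in control. The coefficient of variation over libraries was larger in DA in 31 of the 37 tested members, with a median of 33.1% in DA and 21.4% in control. DA 2 was the highest DA library in 19 members and DA 4 the lowest in 22. The members were measured in the same libraries and are not independent, and the share over all genes is not given here. The part of DA 2 and DA 4 in the spread was not tested.

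Whether a chain kept its ratio to its partner was examined in 24 pairs, the 23 known integrin heterodimers with both chains tested and the laminin chains Lama3 and Lamb3. Each value is the log2 ratio of the partners' CPM within a library, which scaling does not change, compared by an exact two-sided permutation test over 924 assignments (smallest p 0.00216) with adjustment over the 24 pairs. These pairs were compared after the fold changes were known, and they share chains, so they are not independent of the values above. In 4 pairs the ratio differed between the groups, and 7 had an unadjusted p under 0.05. The ratio of Itgav to Itgb3 was 2.67 ± 0.28 (SD) in DA and 1.41 ± 0.27 in control (n = 6 each), a difference of 1.26 with no overlap (exact permutation, adjusted p = 0.0173). The ratio of Itgav to Itgb5 was 1.23 ± 0.23 in DA and 0.46 ± 0.09 in control, a difference of 0.77 with no overlap (exact permutation, adjusted p = 0.0173). Against Itgb6 (difference 0.14, adjusted p = 0.857) and Itgb8 (-0.15, adjusted p = 0.857) the ratio of Itgav did not pass the exact permutation test.

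In the β7 pairs the ratio of Itgae to Itgb7 was -2.82 ± 0.55 in DA and -4.11 ± 0.58 in control, a difference of 1.29 (exact permutation, adjusted p = 0.0173), while the ratio of Itga4 to Itgb7 differed by 0.14 (adjusted p = 0.857). The ratio of Itgal to Itgb2 was -0.40 ± 0.20 in DA and -0.37 ± 0.24 in control, a difference of -0.03 (exact permutation, adjusted p = 0.857). The ratio of Itga1 to Itgb1 was -4.42 ± 0.54 in DA and -3.38 ± 0.27 in control, a difference of -1.04 that was below the control mean in 6 of 6 DA libraries (exact permutation, adjusted p = 0.026). The ratio of Lama3 to Lamb3 differed by -0.01 (exact permutation, adjusted p = 0.976). The 4 differences past the threshold were also read in the Y-positive and then the Y-negative libraries. They were 0.89 and 1.56 for Itgav to Itgb3 and 0.77 and 0.89 for Itgav to Itgb5. For Itgae to Itgb7 they were 0.56 and 1.94, and for Itga1 to Itgb1 -0.77 and -1.31. Among these pairs only Itga1 to Itgb1 had groups that overlapped over all libraries. Without overlap no subset of libraries can change the direction, so the direction in the other pairs adds nothing.

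**Figure D5:**
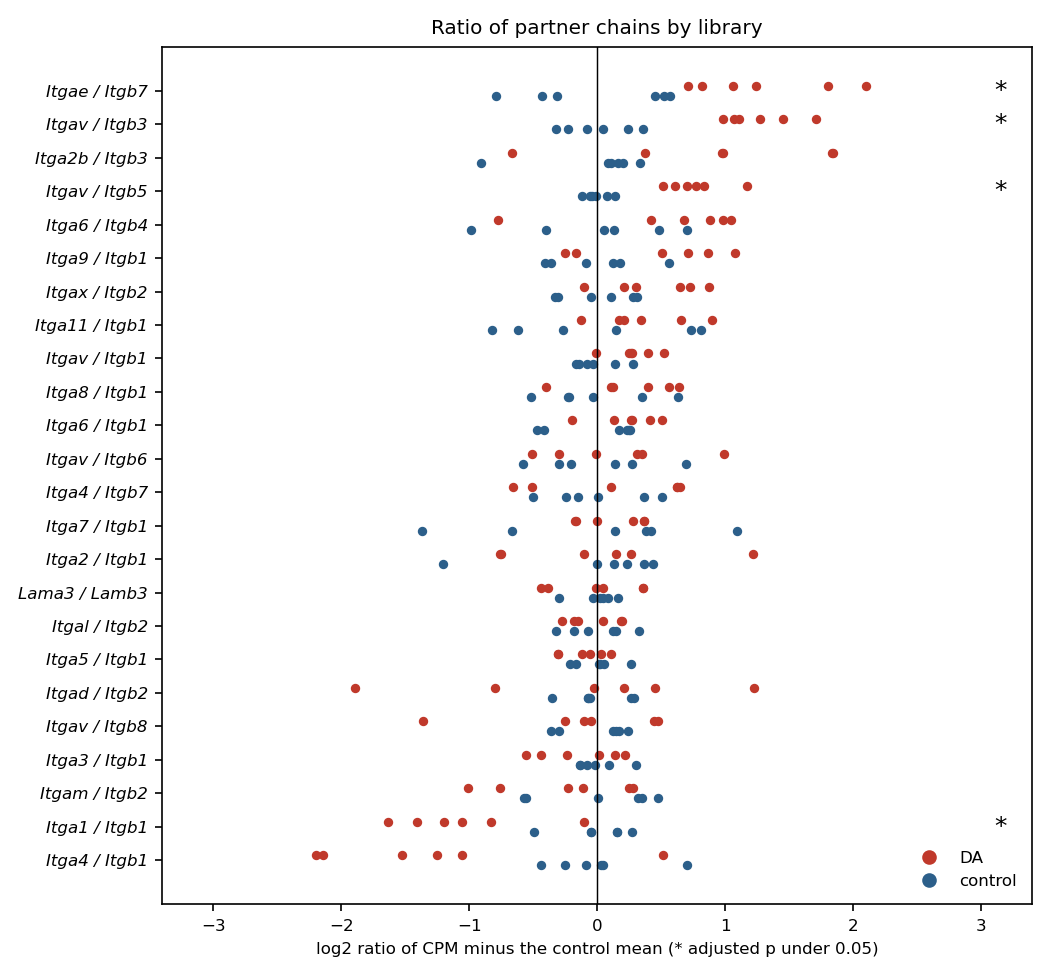
Log2 ratio of the CPM of 2 partner chains in each library, set to the control mean, DA points above control points in each row, with an asterisk at an adjusted p under 0.05 (exact permutation, 24 pairs). The DA points of Itgav to Itgb3 and of Itgav to Itgb5 all lie right of the control points, and the DA points of Itgal to Itgb2 lie among them.

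The proteins that integrins and laminins act with were read from 5 further lists. Of 25 tested integrin ligand genes 9 rose and 1 fell, with a median log2 fold change of 0.41. That is 36% called higher and 4% lower, against 8.45% and 7.51% of all tested genes. Col1a1 (collagen I, the ligand of α1, α2 and α11 pairs) rose by 1.95 ± 0.26, at 722 to 2112 CPM in DA and 259 to 451 CPM in control (adjusted p = 0.00292). Thbs2 (thrombospondin-2) rose by 2.65 ± 0.44, at 10.9 to 59.7 CPM in DA and 3.53 to 6.53 CPM in control (adjusted p = 0.00445). The groups overlapped in neither gene. Of 34 tested adhesion adaptor genes, which link integrin tails to actin, 4 rose and 5 fell (11.8% and 14.7%), with a median of 0.04. Tns1 (tensin-1) fell by 1.41 ± 0.30, at 263 to 1071 CPM in DA and 961 to 2260 CPM in control (adjusted p = 0.011). Tln1 (talin-1, which switches integrins on) fell by 0.57 ± 0.13, at 579.6 to 923 CPM in DA and 861 to 1027 CPM in control (adjusted p = 0.0141). In both the groups overlapped.

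Of 32 other basement membrane genes 2 rose (6.25%, under the share of all genes) and 0 fell, with a median of 0.36. No collagen IV chain (Col4a1 to Col4a6) was called. Col15a1 (collagen XV, at the outer face of the membrane) rose by 1.89 ± 0.34, at 66.0 to 232 CPM in DA and 14.9 to 50.7 CPM in control (adjusted p = 0.00572), without overlap. Col6a3, a collagen VI chain, rose by 0.98 ± 0.22 (adjusted p = 0.0156). Of 5 tested hemidesmosome genes 1 rose (Krt15, 0.73, adjusted p = 0.00878) and 1 fell (Plec, the plectin that joins β4 to keratin, -0.55, adjusted p = 0.0147). Of 18 genes of the dystroglycan complex, which holds laminin on muscle, 2 rose and 2 fell (11.1% each way), with a median of 0.14. Sgca, a sarcoglycan of muscle, rose by 1.14 ± 0.24, at 4.66 to 9.27 CPM in DA and 1.97 to 3.92 CPM in control (adjusted p = 0.0106), without overlap. Sntb2, a syntrophin, fell by 0.92 ± 0.19, at 7.91 to 18.0 CPM in DA and 16.8 to 26.3 CPM in control (adjusted p = 0.0109), and its groups overlapped. Dag1, dystroglycan itself, was not called (0.21, adjusted p = 0.445). Beside them 4 of 5 smooth muscle markers rose, with sums of 1303 to 3808 CPM in DA and 620.1 to 1206 CPM in control, and 3 of 3 tested cardiac muscle markers rose, with sums of 32.2 to 568 CPM in DA and 10.4 to 25.1 CPM in control. The highest sum was that of DA 4, and the next highest DA library had 235 CPM. Without DA 4, an alternative chosen after seeing the data, Actc1 (3.08, adjusted p = 0.00156) and Tnnt2 (1.47, adjusted p = 0.0273, against 4.24 with it) were called higher, and Tnni3 was not (0.96, adjusted p = 0.149, against 3.76 with it). The shares of all tested genes to set beside each count here are 8.45% higher and 7.51% lower. Of 5 fibroblast markers 3 rose and 1 fell. The part of these cells in the lists' counts was not tested.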

How the data were processed

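RNA from 12 rat lung samples (6 DA, 6 control) was sequenced on an Illumina instrument. Per the submitters' processing notes, HISAT2 2.2.1 and HTSeq 2.0.2 were used with the build mRatBN7.2, and the strand setting, annotation release and filters are not given in the sources used here. The authors deposited raw read counts per Ensembl gene and FPKM values. The deposited FPKM could be recomputed from count, table gene length and library total, with deviations no larger than 7e-14 of the value.

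Groups followed the labels, which number the libraries as replicates without stating that each is a separate rat, so p-values measure the spread between these libraries. The members, gene lists and tests were chosen with earlier results of these data known. In edgeR 4.0.16 (R 4.3.3) the counts of 14517 genes that passed filterByExpr were scaled by TMM and compared by a two-sided quasi-likelihood F test on group alone. P-values were adjusted over those genes by the Benjamini-Hochberg method, with 0.05 as threshold. Adjusted p-values are edgeR's unless another tool is named (limma 3.58.1 or DESeq2 1.42.0). A count of 0 allows up to 3 counts, which covers counting error only. A library was taken to hold Y-linked reads at 100 or more counts over the Y-linked genes. Library values are given for called members whose mean FPKM reached 1 in either group and for 26 genes fixed by name, 1 of which (Hspg2) was not analysed here. Of the genes the name rule found, 1 is not reported here, nor is 1 gene of the lists, and neither enters any count of members, lists or pairs. Both stayed in the fit over all genes. From each list the 2 called genes with the smallest adjusted p were named. Promoter sequences came from RefSeq (GRCr8), whose coordinates differ from those of the build used for counting. Alternatives were other scalings, filters and tools, pseudocounts of 0.1, 0.5 and 1 on log2(FPKM), a covariate for Y-linked reads, the replicate number as a block and leaving out each library.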

Additional observations from a re-analysis of the deposited data

Results flagged for a closer look

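In 74 groups of 6 libraries (37 tested members in DA and in control), 5 single values lay far from the rest of their group. The rule was Dixon's test at its 95% level on the log scale, while the values below are given as CPM. Chance alone flags about 1 in 20 groups. Agrn had 156 CPM in DA 4, against 319 CPM in the next lowest DA library. Lamc3 had 2.36 CPM in DA 4, against 9.24 CPM in the next lowest. Lamb1 had 147 CPM in DA 2, against 110.2 CPM in the next highest DA library. Lama3 had 162 CPM in control 2, against 110.4 CPM in the next highest control library, and Itga1 had 68.6 CPM in control 1, against 90.9 CPM in the next lowest control library.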

How the results depend on the processing

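Of the 6 called members, Itgal, Itgb2 and Itgb7 were called with every term, filter and scaling tried and without each single library, and lost the call in the Y-positive libraries, where edgeR called 0 of all tested genes. Itgam turned to 0.07 there. The members called higher (0) came to 3 with DESeq2, 1 with upper quartile scaling, 5 with voom quality weights, 2 with the gene length trend removed and 3 in the Y-negative libraries. Those called lower (6) came to 3 with a term for Y-linked reads and 0 in the Y-positive libraries. Leaving out 1 library gave 0 to 5 members higher (5 without DA 4, 2 without DA 5) and 4 to 8 lower (8 without DA 2). The cause was not tested.

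The pathway genes called higher (18) came to 36 and those called lower (9) to 14 with voom quality weights, and both to 0 in the Y-positive libraries. Leaving out 1 library gave 15 to 30 higher (30 without DA 4) and 4 to 13 lower (4 without control 4). The Lamb3 share in DA minus control (10.9 percentage points) was 6.12 in the Y-positive libraries, 15.1 in the Y-negative ones and 9.63 to 12.2 without 1 library. Of the partner ratios, 3 to 5 passed without 1 library, an alternative chosen after seeing the data.

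No pairing by replicate number was evident: same-numbered libraries correlated at -0.256 to 0.3 in their deviations from the group means. Differently numbered libraries were not compared, so pairing is not excluded. With the replicate number as a block, 1 member was called higher (Nid1) and 4 lower, and 4 of the 6 calls were kept. Upper quartile scaling moved the median of all genes to 0.08 on the log2 scale and turned no called direction. At these depths a member of a few counts, such as Itga10, cannot be compared.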
